A study of Mus musculus with 48 samples.

Results

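The RNA of introns in total RNA was compared between mouse fibroblasts with a hairpin against Bmal1 and fibroblasts with a control hairpin. The comparison took 24 of the 48 libraries of the study, those of total RNA, 12 from each line. Genes entered where their mean intron RPKM over these libraries (reads scaled to intron length and to all mapped reads) was at least 0.1, which kept 10019 of 11313 genes. Just inside that limit lay Gm49936, Celf2 and Spice1 with means of 0.10003, 0.10005 and 0.10014, and just outside it Gm45397, Map3k1 and Dph5 with means of 0.0999 each. Both groups were NIH 3T3, an immortalised line of mouse embryonic fibroblasts, stably carrying shCTRL or shBmal1. Both received 50% horse serum for 2 h, a pulse that sets the clocks of the cells to a common phase, and were collected every 2 h from 24 to 46 h. The study held 1 stable line of each kind and 1 library per line and time point, so p-values here measure the spread of single libraries around fitted curves and not the spread between independent lines. The same cultures also took up the uridine analogue 4sU for the other libraries of the study, and the total RNA was what remained after a part went to the 4sU pull-down.

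Introns are transcribed with the rest of a gene and are mostly removed and degraded soon after, so that reads in introns of total RNA come largely from RNA that is being made or spliced. BMAL1, the product of Arntl, pairs with CLOCK and activates genes through E-boxes, short elements with the letters CACGTG. Among its targets are the Per and Cry repressors that close the loop, the REV-ERB receptors Nr1d1 and Nr1d2 that repress Arntl through ROR elements, and the D-box factors Dbp and Tef. A short hairpin acts mainly on spliced RNA in the cytoplasm.

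Per library, total mapped reads were 53931845 to 76260143 in shCTRL and 50977879 to 69829031 in shBmal1, recovered from the RPKM steps. Introns of the listed genes took 22.1% to 24.8% of the reads in shCTRL (median 24.0%) and 21.5% to 24.4% in shBmal1 (median 23.1%), with shBmal1 lowest at 26 h. The first principal component (38.4% of the variance) separated the lines, with all shCTRL libraries below 0 and all shBmal1 libraries above it. All 10019 genes entered it, among them 460 whose RPKM was computed over different intron lengths in the 2 lines. Their part in this separation was not tested. The shCTRL library at 30 h and the shBmal1 library at 34 h stood apart from their groups on the second component (10.6%), at 23.9 and -21.2. Of 11 fibroblast markers 10 were measured, and their deposited intron RPKM summed to 1139 to 1946 per shCTRL library and 1321 to 1921 per shBmal1 library, with Vim at a mean of 1402 and 1574 scaled RPKM. Of those 10, 3 were higher in shBmal1 and 5 lower by the test described next, Dcn, Pdgfra, Pdgfrb and Thy1 among the lower, and 1 and 5 with upper quartile scaling. For epithelial cells 5 of 13 markers were measured (sums 0.266 to 0.627 in shCTRL and 0.534 to 1.056 in shBmal1), for leukocytes 4 of 9 (sums 4.106 to 7.123 and 3.507 to 7.745) and for adipocytes 2 of 7 (1.27 to 1.69 and 1.16 to 1.81). Muscle markers were measured for 2 of 8 (0.445 to 1.58 and 0.166 to 0.659), neural markers for 2 of 9 (0.065 to 0.160 and 0.036 to 0.158) and endothelial markers for 1 of 6 (0.002 to 0.024 and 0.010 to 0.029). The other markers, among them the defining genes Cdh1, Epcam, Ptprc, Pecam1, Adipoq, Myod1 and Tubb3, were not analysed here.

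Values below are intron RPKM scaled to a common median library, fold changes are differences of log2(scaled RPKM + 0.02), shBmal1 minus shCTRL over the 12 time points, and errors are standard errors of the limma fit. In limma, 2896 genes were higher in shBmal1 at an adjusted p under 0.05 (28.9%) and 2732 were lower (27.3%), together 56.2% of all, with a median log2 fold change of 0.005 over all genes. Scaling to the upper quartile gave 2058 higher and 3632 lower with a median of -0.06, which bears on every count of small differences below. Without the 2 libraries that stood apart there were 3111 higher and 3036 lower, and without the 24, 26 and 28 h time points 1203 and 1153. In the latter fit the time points no longer fill a 24 h cycle. Its fold changes, here and below, compare fitted curves over the whole cycle and not the means of the remaining libraries. Because more than 1 gene in 2 passed an adjusted p under 0.05 with all libraries, a gene is termed called where it also differed 2-fold. By that rule 74 genes were higher (0.739%) and 53 lower (0.529%), with 64 and 74 under upper quartile scaling and 73 and 59 without the libraries that stood apart. Of these 127 genes 59 (46.5%) carried RPKM computed over different intron lengths in the 2 lines, against 4.59% of all genes tested. Those genes are described apart, and 30 higher and 37 lower genes with 1 length remained, besides C3, whose length could not be determined.

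The clock genes bear directly on the hairpin's target, and 14 of the 16 measured had a promoter in the RefSeq set of promoters (GRCm38.p6, 250 bases before to 50 after the start). CACGTG stood in the promoters of Per1, Cry1, Ciart, Bhlhe41 and Tef, the D-box TTATGTAA in that of Per3, and the ROR element TAGGTCA in those of Arntl and Nfil3. Both strands were searched (TTACATAA and TGACCTA being the reverse forms of the second and the third), and no promoter of these genes held more than 1 of the 3 motifs. Of all 32851 promoters in that set, 7.15% held the E-box, 0.938% the D-box and 2.61% the ROR element, and by gene 12.7% of the 7699 tested genes with a promoter held the E-box, 0.649% the D-box and 2.12% the ROR element. A match is a description of the letters, not of binding. The 250 bases before the start of 5 genes are shown because they hold these motifs and stand for the repressors and D-box factors described below, Ciart included although its introns passed neither test; capitals mark the motif letters, in lines given from 5′ to 3′ on the strand of the gene. They are chr10:85185055-85185304 (minus strand) for Cry1, chr15:81802423-81802672 (plus) for Tef, chr3:95882229-95882478 (minus) for Ciart, chr4:151044666-151044915 (minus) for Per3 and chr13:52981040-52981289 (minus) for Nfil3.
Cry1: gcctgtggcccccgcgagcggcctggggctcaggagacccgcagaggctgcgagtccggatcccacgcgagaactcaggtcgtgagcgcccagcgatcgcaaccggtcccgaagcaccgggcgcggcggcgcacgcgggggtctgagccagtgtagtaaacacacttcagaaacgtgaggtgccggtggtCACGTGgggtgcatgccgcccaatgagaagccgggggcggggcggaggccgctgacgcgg
Tef: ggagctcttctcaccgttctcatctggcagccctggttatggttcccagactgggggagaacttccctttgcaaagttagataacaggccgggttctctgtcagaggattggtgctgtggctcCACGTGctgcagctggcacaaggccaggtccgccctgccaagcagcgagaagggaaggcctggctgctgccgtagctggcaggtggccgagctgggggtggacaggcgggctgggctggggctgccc
Ciart: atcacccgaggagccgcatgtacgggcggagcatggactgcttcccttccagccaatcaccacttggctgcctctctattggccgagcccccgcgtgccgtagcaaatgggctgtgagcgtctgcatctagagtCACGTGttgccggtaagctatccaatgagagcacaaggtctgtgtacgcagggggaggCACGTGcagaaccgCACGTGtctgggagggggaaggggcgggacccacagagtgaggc
Per3: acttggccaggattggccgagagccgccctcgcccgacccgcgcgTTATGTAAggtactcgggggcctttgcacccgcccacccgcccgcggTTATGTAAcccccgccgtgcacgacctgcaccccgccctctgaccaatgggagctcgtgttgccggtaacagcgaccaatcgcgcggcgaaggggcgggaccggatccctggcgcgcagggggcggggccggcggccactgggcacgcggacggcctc
Nfil3: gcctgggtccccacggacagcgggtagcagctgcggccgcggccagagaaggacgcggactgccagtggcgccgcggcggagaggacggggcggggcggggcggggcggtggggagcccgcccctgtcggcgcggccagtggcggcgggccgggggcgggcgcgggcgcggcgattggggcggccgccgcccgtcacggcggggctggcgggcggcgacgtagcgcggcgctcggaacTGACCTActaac
The E-box of Cry1 begins at position -60 from the start and that of the Tef promoter shown at -127. Tef has a further promoter in the set, not shown, whose E-box begins at -138. Ciart, a repressor of the BMAL1 and CLOCK pair, has 3, at -116, -58 and -44. The D-boxes of Per3 begin at -205 and -158, and the ROR element of Nfil3 at -12.

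Arntl, the targeted gene (chromosome 7, 113178471 to 113314126 in GRCm38.p6), did not have less intron RNA in the knockdown line. In shCTRL its introns read 0.1, 0.157, 0.291, 0.464, 0.577, 0.621, 0.589, 0.489, 0.425, 0.241, 0.161 and 0.129 RPKM from 24 to 46 h. In shBmal1 the same time points read 0.302, 0.342, 0.361, 0.468, 0.493, 0.545, 0.445, 0.412, 0.441, 0.457, 0.446 and 0.601. The control values rose to a peak at 34 h and fell again, while the shBmal1 values stayed within the upper part of that range, higher at 8 time points and lower at 4. The mean difference was 0.51 ± 0.0631 (limma adjusted p = 1.98e-06), and its adjusted p was 0.0717 with time points as a block and 0.102 without time terms. The exons of the same libraries went the other way, with a log2 fold change of -0.92 ± 0.0811. Its partner Clock had intron values of 0.478 to 0.580 in shCTRL (median 0.526) and 0.575 to 0.689 in shBmal1 (median 0.610), higher at 12 of 12 time points. That difference was 0.24 ± 0.0329 (limma adjusted p = 4.90e-06), while its exons stood at -0.36 ± 0.0811.

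Nr1d2, the gene of REV-ERB beta, had the largest loss of intron RNA among the clock genes. In shCTRL it ran 1.12, 0.942, 0.506, 0.314, 0.259, 0.269, 0.331, 0.401, 0.548, 0.787, 0.998 and 1.01 RPKM from 24 to 46 h. In shBmal1 it ran 0.266, 0.224, 0.155, 0.123, 0.136, 0.136, 0.131, 0.139, 0.171, 0.227, 0.223 and 0.222, below shCTRL at every time point and overlapping only the lowest control values. The difference was -1.55 ± 0.0531 (limma adjusted p = 1.64e-14). Rora, which activates through the element that REV-ERB proteins repress, read 0.156 to 0.211 in shCTRL (median 0.193) and 0.0573 to 0.106 in shBmal1 (median 0.0778). Its groups did not overlap, as in 6.16% of all genes, and it differed by -1.07 ± 0.0586 (limma adjusted p = 2.51e-11), though it passed the filter only through shCTRL. Nr1d1, the gene of REV-ERB alpha, was at 3.88 to 8.48 in shCTRL (median 5.89) and 2.81 to 4.37 in shBmal1 (median 4.16). Its intron difference of -0.57 ± 0.0706 (limma adjusted p = 1.88e-06) stood beside -1.56 ± 0.0552 in exons. Nr1d1 and Thra overlap at their ends on opposite strands, whether strand was used in counting is not given, and Thra carried 2 intron lengths.

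The repressors of the loop did not move together. Of the 8 measured, 2 were higher and 3 lower at an adjusted p under 0.05, with a median of -0.19, and 1 and 1 with time points as a block. Per3 was below shCTRL at 12 of 12 time points, at 0.164 to 0.677 in shCTRL (median 0.297) and 0.0987 to 0.211 in shBmal1 (median 0.130), a difference of -1.14 ± 0.0584 (limma adjusted p = 9.25e-12). Per2 read 0.559 in shCTRL at 26 h and 0.0970 at 34 h, while shBmal1 spanned only 0.127 to 0.267. It was therefore lower in shBmal1 at 7 time points and higher at 5, with a mean difference of -0.17 ± 0.052 (limma adjusted p = 0.0112) that had an adjusted p of 0.597 without time terms. Per1 differed by -0.06 ± 0.0644 (limma adjusted p = 0.417). Cry1 was higher, at 0.0471 to 0.198 in shCTRL (median 0.0938) and 0.137 to 0.217 in shBmal1 (median 0.168), a difference of 0.67 ± 0.0474 (limma adjusted p = 1.09e-09). The shCTRL values of Cry1 fell from 0.198 at 26 and 28 h to 0.0471 at 42 h, and the shBmal1 values did not follow. Cry2 stood at 0.16 ± 0.0652 (limma adjusted p = 0.0426, and 0.279 with upper quartile scaling), Bhlhe40 at -0.22 ± 0.0796 (adjusted p = 0.0276, and 0.249 with time points as a block), Bhlhe41 at -0.22 ± 0.149 (0.219) and Ciart at -0.38 ± 0.179 (0.0823).

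The D-box factors split by sign. Dbp, an activator at D-boxes, read 9.85, 6.72, 3.51, 2.66, 1.2, 1.12, 1.29, 1.33, 1.80, 3.61, 5.43 and 7.17 RPKM from 24 to 46 h in shCTRL. In shBmal1 it read 2.58, 1.81, 2.10, 1.24, 1.17, 0.782, 1.22, 1.40, 0.911, 1.45, 1.55 and 1.53. The lines lay close from 32 to 38 h, when the control was low, and lay far apart at both ends of the course, giving a mean difference of -1.04 ± 0.098 (limma adjusted p = 6.37e-08). Tef, an activator of the same family, followed that form, at 0.504 to 2.77 in shCTRL (median 1.18) and 0.542 to 0.949 in shBmal1 (median 0.651), with a difference of -0.70 ± 0.0604 (limma adjusted p = 1.48e-08). Nfil3, the repressor at the same elements, was higher at 12 of 12 time points, at 0.0922 to 0.477 in shCTRL (median 0.251) and 0.323 to 0.992 in shBmal1 (median 0.488). It differed by 1.03 ± 0.135 (limma adjusted p = 5.58e-06), and its highest value was that of 46 h. Hlf lay under the filter, with means of 0.0250 and 0.0215 deposited RPKM.

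**Figure D1:**
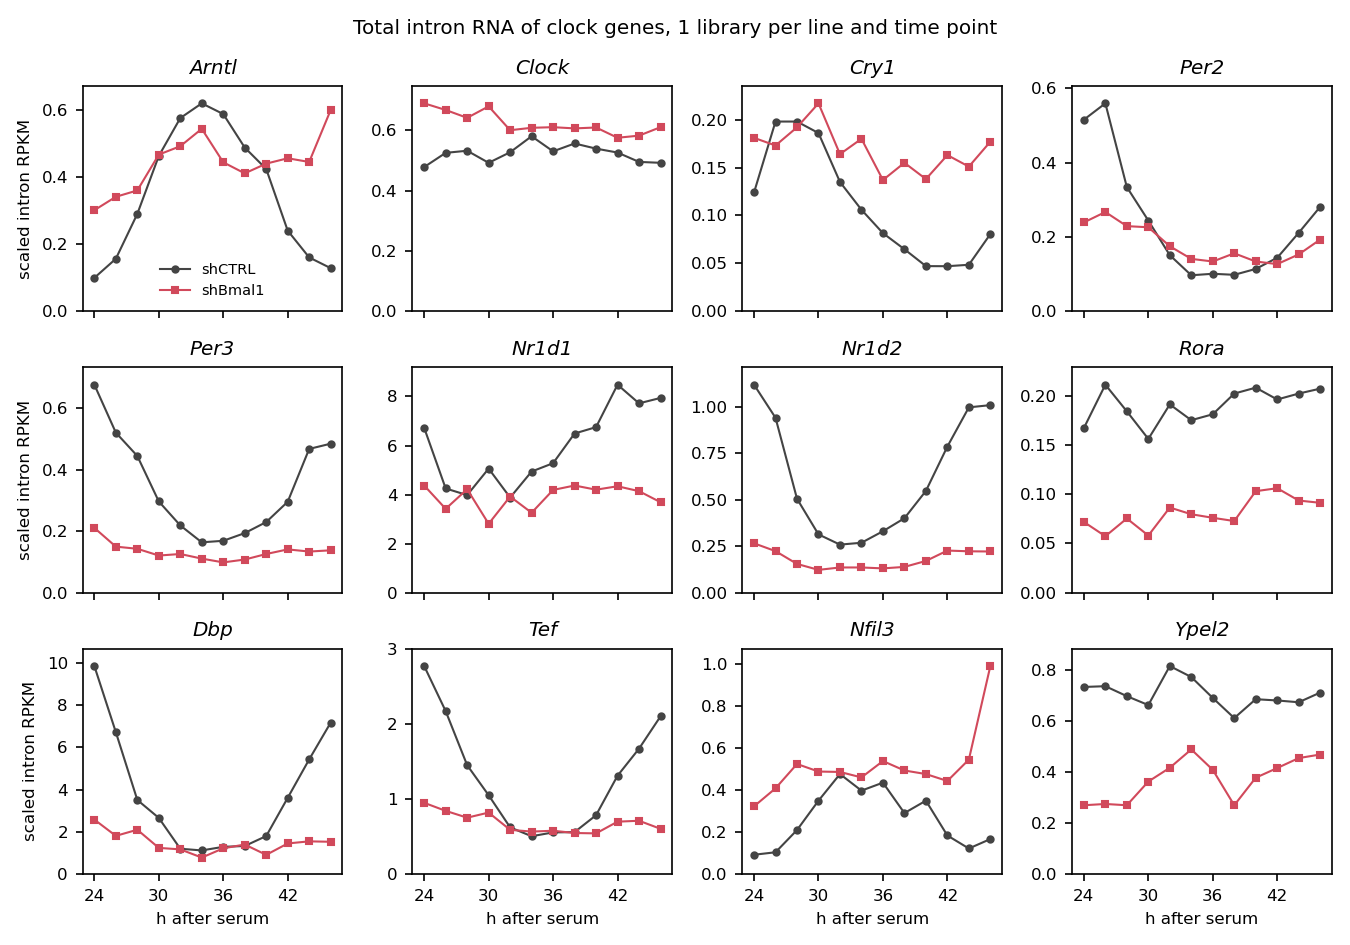
Scaled intron RPKM (y axis, from 0) against h after serum (x axis) for 12 clock genes and outputs in shCTRL (grey circles) and shBmal1 (red squares), 1 library per point. Nr1d2, Per3, Dbp and Tef fell and rose again in shCTRL and stayed low in shBmal1, while Arntl and Cry1 stayed high where the control was low.

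Proteins that modify the loop differed little. Of 6 described, 4 were lower at an adjusted p under 0.05 and none was higher, with a range of -0.27 for Kmt2a, a histone methyltransferase, to 0.09 for Btrc and Sirt1. With time points as a block 1 was lower. Among 14 measured clock outputs 6 were higher and 5 lower, with a median of -0.01, and 6 higher and 7 lower with upper quartile scaling. The output that differed most was Ypel2, at 0.612 to 0.816 in shCTRL (median 0.694) and 0.270 to 0.489 in shBmal1 (median 0.394), a difference of -0.91 ± 0.0545 (limma adjusted p = 9.35e-11). Cdkn1a, the cell cycle inhibitor p21, was higher by 0.44 ± 0.0812 (limma adjusted p = 1.67e-04), and Klf10, a transcription factor, by 0.39 ± 0.0404 (2.13e-07). Nampt and Por, at 0.53 and 0.44, carried 2 intron lengths and stood at -0.05 and -0.01 on 1 length.

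The difference between the lines changed over the course in 14 genes (0.14%) at a limma adjusted p under 0.05, by a test of the time terms that differ between lines. Among them were 7 of the 16 clock genes measured in these lists, namely Arntl (adjusted p = 0.000116), Cry1 (0.000429), Tef (0.000431), Per2 (0.000971), Nr1d2 (0.0196), Dbp (0.0257) and Per3 (0.0263). For Arntl the log2 difference went from -0.39 at 36 h to 2.06 at 46 h. For Cry1 it went from -0.17 at 26 h to 1.45 at 42 h, and for Per2 from -1.05 at 24 h to 0.57 at 38 h. For Dbp the signed difference was highest at 38 h (0.07) and for Tef at 34 h (0.16), and both were lowest at 46 h (-2.22 and -1.77). Without the shCTRL 30 h and shBmal1 34 h libraries 9 genes passed, and without any 1 time point 4 to 11.

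Outside the clock, the largest gains of intron RNA among genes with 1 length and 1 direction at 12 of 12 time points were in Prl2c2, Atg9b and Krt14. Prl2c2, the gene of the placental hormone proliferin 1 (chromosome 13), read 0.0173 to 0.118 in shCTRL (median 0.0561) and 0.171 to 1.08 in shBmal1 (median 0.338). Every shBmal1 library lay above every control library, and the difference was 2.42 ± 0.138 (limma adjusted p = 1.05e-10). Prl2c2 passed the filter of 0.1 only through shBmal1, with a mean of 0.0593 in shCTRL, so a gene this low in the control had to be higher to be tested. Its near-identical relatives can share reads, so the amount for this copy is uncertain. Atg9b, an autophagy membrane protein, went from 0.243 to 0.497 (median 0.338) to 0.909 to 1.46 (median 1.28), a difference of 1.75 ± 0.109 (limma adjusted p = 3.20e-10). Krt14, a keratin of basal epithelium, went from 0.117 to 0.368 (median 0.148) to 0.398 to 0.864 (median 0.573), a difference of 1.67 ± 0.134 (1.38e-08), while 3 further epithelial markers lay under the filter and were not tested, Gjb5 at 0.0115 in shCTRL and 0.0599 in shBmal1, Plet1 at 0.1325 and 0.0299 and Cldn7 at 0.0598 and 0.0460. Ptgs2, the inducible cyclooxygenase COX-2, also separated without overlap, at 0.345 to 0.631 in shCTRL (median 0.420) and 1.03 to 1.71 in shBmal1 (median 1.25). That was a difference of 1.49 ± 0.0847 (limma adjusted p = 4.49e-11). The other 6 were Gm10718 (1.53), Ces2g, a carboxylesterase (1.50), Epn3, an endocytic adaptor (1.39), Gask1b (1.37), Gm5886 (1.34) and Tinagl1, a secreted matrix protein (1.31). Epn3, too, passed the filter only through shBmal1 (means of 0.0616 and 0.194). Of these 10 only Gm5886 had groups that overlapped, while among all genes 6.16% had groups without overlap. The 10 were chosen by size and by 1 direction at 12 of 12 time points, which favours such separation.

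The largest losses were in Plet1os, Aldh3a1, Saa3 and Igf2. Plet1os, a transcript antisense to Plet1, went from 0.740 to 1.46 in shCTRL (median 1.2) to 0.118 to 0.369 in shBmal1 (median 0.266), a difference of -2.16 ± 0.129 (limma adjusted p = 3.04e-10). Its intron length of 18214 bases is longer than its RefSeq span, and Plet1 itself, given above, lay under the filter. Aldh3a1, an aldehyde dehydrogenase, was at 1.15 to 2.42 in shCTRL (median 1.64) and 0.294 to 0.479 in shBmal1 (median 0.379), with no overlap and a difference of -2.04 ± 0.0765 (limma adjusted p = 6.49e-14). Saa3, an acute phase apolipoprotein with near-identical relatives, was at 0.377 to 1.21 (median 1.02) and 0.0961 to 0.676 (median 0.278), a difference of -1.61 ± 0.183 (1.93e-06). Igf2, an insulin-like growth factor whose gene is imprinted, was at 6.16 to 10.7 in shCTRL (median 8.05) and 2.31 to 3.76 in shBmal1 (median 2.75). The groups of Igf2 did not overlap, and it differed by -1.57 ± 0.0635 (limma adjusted p = 2.18e-13). Nr1d2 was the fifth of these genes. The remaining 5 were Chil1, a chitinase-like secreted protein (-1.52), Gm49394 (-1.40), the complement gene C4b (-1.40), the neurokinin receptor Tacr2 (-1.37) and the receptor Mrgprd (-1.35). Of these, Chil1, Gm49394, Tacr2 and Mrgprd passed the filter only through shCTRL, with shBmal1 means of 0.0465, 0.0897, 0.0477 and 0.0807.

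**Figure D2:**
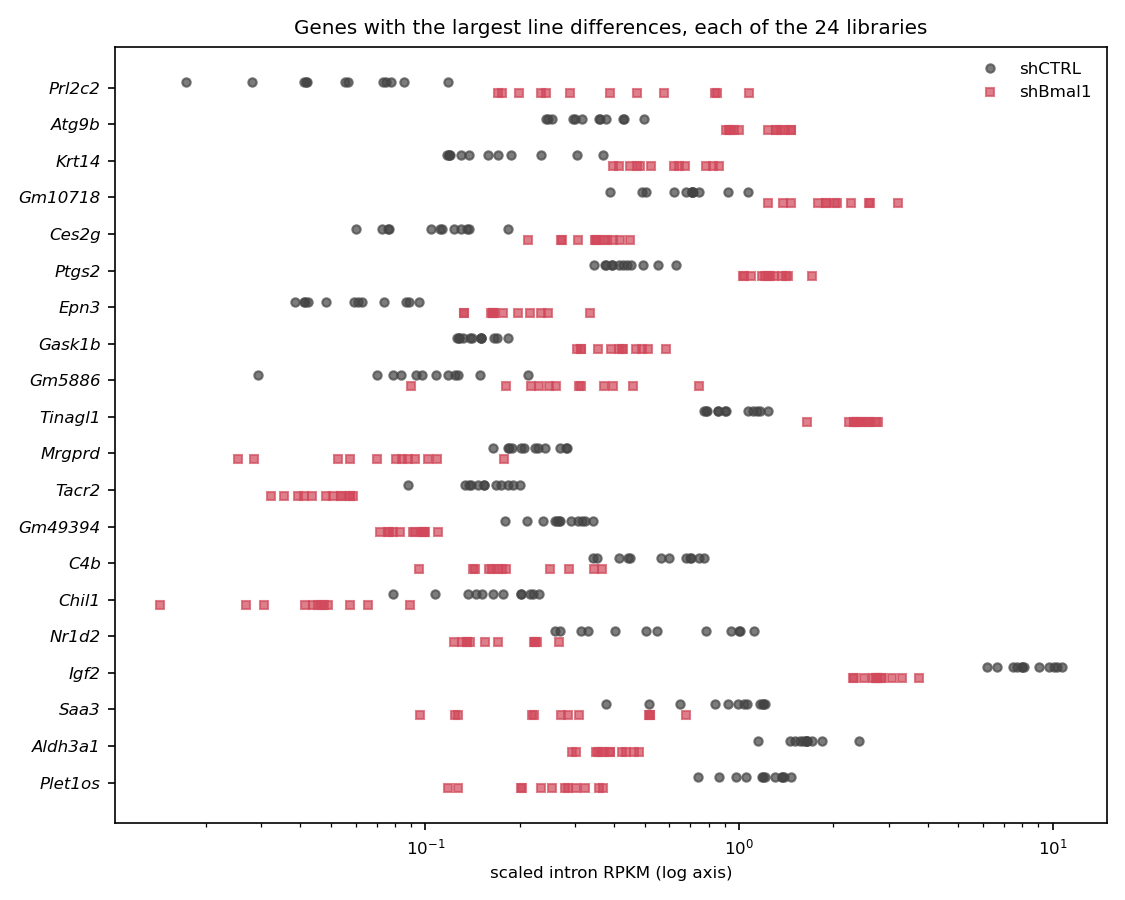
Scaled intron RPKM in each of the 24 libraries (x axis, log scale) for the 10 genes with the largest gains and the 10 with the largest losses, shCTRL as grey circles and shBmal1 as red squares. In Prl2c2, Atg9b, Aldh3a1 and Igf2 the libraries of the lines do not overlap. In Nr1d2, C4b, Chil1 and Mrgprd they meet at the edges, and in Saa3 and Gm5886 they overlap more widely.

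Further called genes were named after their values were seen, so no theme is drawn from them. Mmp11, a matrix metalloproteinase, was at a mean of 14.2 in shCTRL and 5.81 in shBmal1 (-1.23 ± 0.0719, limma adjusted p = 6.31e-11). Slpi, a secreted protease inhibitor, was at 37.8 and 18.2 (-1.08), and F3, the gene of tissue factor, at 2.03 and 0.911 (-1.14). Sned1 (-1.16), the proteoglycan Prelp (-1.12) and the adhesion molecule Ceacam1 (-1.19) were also lower. Slc29a1, a transporter that carries uridine and other nucleosides across the cell membrane, was at 7.46 to 11.4 in shCTRL (median 8.21) and 3.19 to 4.81 in shBmal1 (median 3.98), without overlap (-1.10 ± 0.0664, limma adjusted p = 1.05e-10). Airn, the noncoding RNA of the imprinted Igf2r locus, stood at 1.37 and 0.667 (-1.03), and the kinase Cdk16 at 12.6 and 5.98 (-1.08). On the higher side were Slco2a1, a prostaglandin transporter (1.07 ± 0.0407, limma adjusted p = 7.75e-14), Ucp2, a mitochondrial carrier (1.05), and Gtse1 (1.19) and Ddias (1.05). For most of these the exons of the same libraries moved alike, Mmp11 by -1.42, Slc29a1 by -1.16 and Slco2a1 by 1.08. Ramp2 was the exception among those named, with -1.23 in introns and -0.11 in exons, and its intron model exceeds the RefSeq gene span.

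Genes of the cell cycle were higher as a group. Of 25 genes of the G1 to S step 19 were higher and none lower at an adjusted p under 0.05 (median 0.39), and of 22 genes of G2 and mitosis 18 were higher and none lower (median 0.36). Over all genes 28.9% were higher and 27.3% lower, the share that stands beside these and all other list counts. Scaled within 20 bins of intron length, 16 and 18 were higher and none lower, with medians of 0.30 and 0.29. Ccnd1, the gene of cyclin D1, was at 1.05 to 1.56 in shCTRL (median 1.30) and 1.57 to 2.35 in shBmal1 (median 1.90), which did not overlap (0.62 ± 0.0511, limma adjusted p = 8.06e-09). Mcm3, a subunit of the replicative helicase, was higher by 0.76 ± 0.0613 (6.62e-09), Ccne1, cyclin E1, by 0.67 ± 0.088 (3.92e-06) and Ccnd3, cyclin D3, by 0.68 ± 0.0742 (3.52e-07). In the later group Ccnb1, cyclin B1, was higher by 0.73 ± 0.0949 (3.46e-06), Aurka, a mitotic kinase, by 0.64 ± 0.094 (1.38e-05), and Cdk1 by 0.53 ± 0.0674 (2.42e-06). The largest value, 1.13 for Nusap1, rests on 2 intron lengths. Among those that did not pass were Ccnb2, Anln and Mki67, at -0.15, -0.09 and -0.08, and E2f1 (0.04) and Ccne2 (0.05). Without the 24, 26 and 28 h time points 10 genes of each list were higher, 9 and 10 of them higher with all time points too. In that fit 1203 of all 10019 genes were higher and 1153 lower.

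Targets of p53, the damage-responsive transcription factor, were mostly higher too, 17 of 21 against 3 lower (median 0.53). Without the 24, 26 and 28 h time points 12 were higher and 1 lower (median 0.37). Scaled within 20 bins of intron length, 15 were higher and 3 lower (median 0.36). Mdm2, the ligase that degrades p53, was at 1.39 to 1.98 in shCTRL (median 1.60) and 2.29 to 4.99 in shBmal1 (median 3.55). Its groups did not overlap and it differed by 1.15 ± 0.0838 (limma adjusted p = 1.61e-09). Bax, an effector of cell death, was higher by 0.77 ± 0.072 (4.41e-08), Sesn2, a stress-induced regulator of TORC1, by 0.94 ± 0.0583 (1.52e-10), Ddit4 by 0.87 ± 0.0678 (4.17e-09) and Btg2, an antiproliferative factor, by 0.81 ± 0.103 (2.64e-06). Pidd1, a death-domain target of p53 outside the list, was higher by 1.40 ± 0.145 (4.36e-07), with 2 intron lengths of 2574 and 2556 bases that leave 1.39 after their ratio is taken off. Gadd45a (-0.72 ± 0.107, limma adjusted p = 1.91e-05), Sesn1 (-0.33) and Fas (-0.23) were lower. At 46 h Gadd45a went the other way, at 32.1 in shBmal1 (its other libraries 9.69 to 18.3) and 23.8 in shCTRL. Sesn1 stood at -0.22 (limma adjusted p = 0.115) without the 24, 26 and 28 h time points. Earlier results of these data were known when the lists of p53 targets and cell cycle genes were chosen, so their direction is a description.

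Genes of ribosomes and of the hosts of small nucleolar RNAs moved in 1 direction. Among 23 ribosomal protein genes 19 were higher and none lower (median 0.33), led by Rps3 (0.63 ± 0.058, limma adjusted p = 4.21e-08) and Rpl27 (0.60 ± 0.056, 4.51e-08). Among 14 host genes 11 were higher and none lower (median 0.38), with Snhg1 at 0.66 ± 0.0507 (3.59e-09) and Gas5 at 0.57 ± 0.0626 (4.40e-07). Introns of both groups are short, with median lengths of 2903 and 2761 bases against 17516 over all genes with 1 length. Within 20 bins of intron length the medians were 0.15 and 0.19, with 14 higher and 2 lower ribosomal genes and 10 higher host genes. Without the 24, 26 and 28 h time points 9 ribosomal and 6 host genes were higher. Small nucleolar RNAs lie in introns of these hosts, and reads from them cannot be told apart from pre-mRNA here. Of 19 genes of oxidative phosphorylation 13 were higher and 1 lower (median 0.19), and 6 and 1 without those time points. The lower gene was Ndufa4, a subunit of complex IV (-0.52 ± 0.0549, limma adjusted p = 2.44e-07). Of 17 genes of glycolysis and the hypoxia response 8 were higher and 1 lower (median 0.12), among them Ldha (0.79 ± 0.0625) and Pgk1 (0.70 ± 0.0428).

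Of 20 genes of NRF2 and iron 12 were higher and 1 lower (median 0.15), against 8 and 4 with upper quartile scaling and 10 and 3 within length bins, with the haem oxygenase Hmox1 at 0.64 ± 0.0663, the ferritin light chain Ftl1 at 0.58 ± 0.0638 and the ferritin heavy chain Fth1 at -0.65 ± 0.0574 (limma adjusted p = 1.97e-08). The 2 highest members, Gclm (1.03) and Txnrd1 (0.97), had 2 intron lengths. In the list of the unfolded protein response and ATF4, 9 of 20 were higher and 4 lower (median 0.22). The higher side held Trib3 (1.09 ± 0.192), Shmt2 (0.67 ± 0.0727), Asns (0.48 ± 0.0951) and Psph, a serine synthesis enzyme outside the list (1.01 ± 0.101), and the lower side the ER genes Ern1 (-0.35) and Edem1 (-0.33). With upper quartile scaling this list held 7 higher and 8 lower. The shBmal1 library at 46 h stood far above the other 11 in several of these genes, at 3.88 in Trib3 (others 0.702 to 0.993), 7.91 in Chac1 (0.775 to 1.81), 1.78 in Asns (0.747 to 0.957) and 1.75 in Psph (0.595 to 0.876). Without 46 h the limma values were 0.94 for Trib3, 0.40 for Asns, 0.62 for Shmt2 and 0.90 for Psph, and the list held 10 higher and 3 lower. Among 15 actin and SRF genes 10 were higher and 1 lower (median 0.24): Actb was higher by 0.50 ± 0.0544 and Acta2 by 0.55 ± 0.0707, while Tmsb4x, thymosin beta 4, stood at -1.11 ± 0.0913 (limma adjusted p = 8.92e-09) in introns and -2.07 ± 0.0481 in exons. Of 17 immediate early genes 6 were higher and 4 lower (5 and 8 within length bins), from Egr1 at -0.67 ± 0.118 to Dusp4 at 0.55 ± 0.0925. Sterol and fatty acid genes split into 8 higher and 7 lower of 23 (5 and 8 with upper quartile scaling), with Acly at -0.61 ± 0.0478. Among all genes the shares were 28.9% higher and 27.3% lower.

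Of 15 genes of growth factor signalling 9 were lower and 2 higher (median -0.18), against 6 and 1 without the 24, 26 and 28 h time points. Pdgfra, the platelet-derived growth factor receptor alpha, was at 1.79 to 2.07 in shCTRL (median 1.96) and 0.765 to 1.09 in shBmal1 (median 0.896). Its groups did not overlap (-1.08 ± 0.0441, limma adjusted p = 2.31e-13), and Pdgfrb (-0.76 ± 0.0466) and Igf1r (-0.53 ± 0.0431) were lower with it. Of 18 TGF-beta and BMP genes 12 were lower and 2 higher (median -0.22), against 4 and 3 without the 24, 26 and 28 h time points and 2 and 2 of 5 (median 0.34) at a mean RPKM of at least 0.5. The receptors Tgfbr2 (-0.37 ± 0.063), Tgfbr3 (-0.43 ± 0.0512) and Bmpr2 (-0.31 ± 0.0512) were lower, Tgfbr2 and Bmpr2 with adjusted p of 0.0918 and 0.117 without those time points, and the inhibitor Smad7 was higher by 0.41 ± 0.0556 (limma adjusted p = 4.90e-06). Smad2 (-0.73) and Id3 (1.26) carried 2 lengths. The median intron length was 39361 bases in the first list and 49986 in the second, and within length bins the counts were 7 lower and 1 higher, and 9 lower and 2 higher (medians -0.17 and -0.10).

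Matrix genes did not hold a direction. Of 25 measured 12 were lower and 6 higher (median -0.10), and within bins of intron length 6 were lower and 9 higher. Dcn, the proteoglycan decorin, was at 0.317 to 0.497 in shCTRL (median 0.440) and 0.121 to 0.216 in shBmal1 (median 0.185), a difference of -1.23 ± 0.0759 (limma adjusted p = 1.53e-10). Col3a1 (-0.88 ± 0.0647), Thbs1 (-0.83 ± 0.0649) and Bgn (-0.68 ± 0.0527) were lower, while Ccn1 (0.78 ± 0.154), Ccn2 (0.78 ± 0.187, past the filter only through shBmal1) and Lox (0.70 ± 0.0486) were higher. Col1a1 and Col1a2 stood at 0.13 and -0.13. Of 9 matrix proteases and their inhibitors 5 were lower and 2 higher, with Mmp2 at -0.59 ± 0.0525, and of 12 adhesion genes 5 were lower and 4 higher (4 and 5 within length bins), with the integrin Itgb3 at -0.68 ± 0.0484. Of 16 inflammatory genes 8 were lower and 4 higher. The complement gene C3 was at 56.8 to 129 in shCTRL (median 104) and 22.1 to 73.8 in shBmal1 (median 43.7), a difference of -1.14 ± 0.0945 (limma adjusted p = 1.04e-08), and Lcn2 stood at 0.67 ± 0.159. Tlr2, a receptor for bacterial lipopeptides outside the list, was at 1.94 to 3.76 and 0.789 to 1.63 (-1.15 ± 0.0633, limma adjusted p = 2.84e-11). Of 7 interferon genes 3 were lower and none higher: Gbp2 (-1.15 ± 0.0596), Ifit2 (-0.92 ± 0.0754) and Irf1 (-0.41 ± 0.0445).

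**Figure D3:**
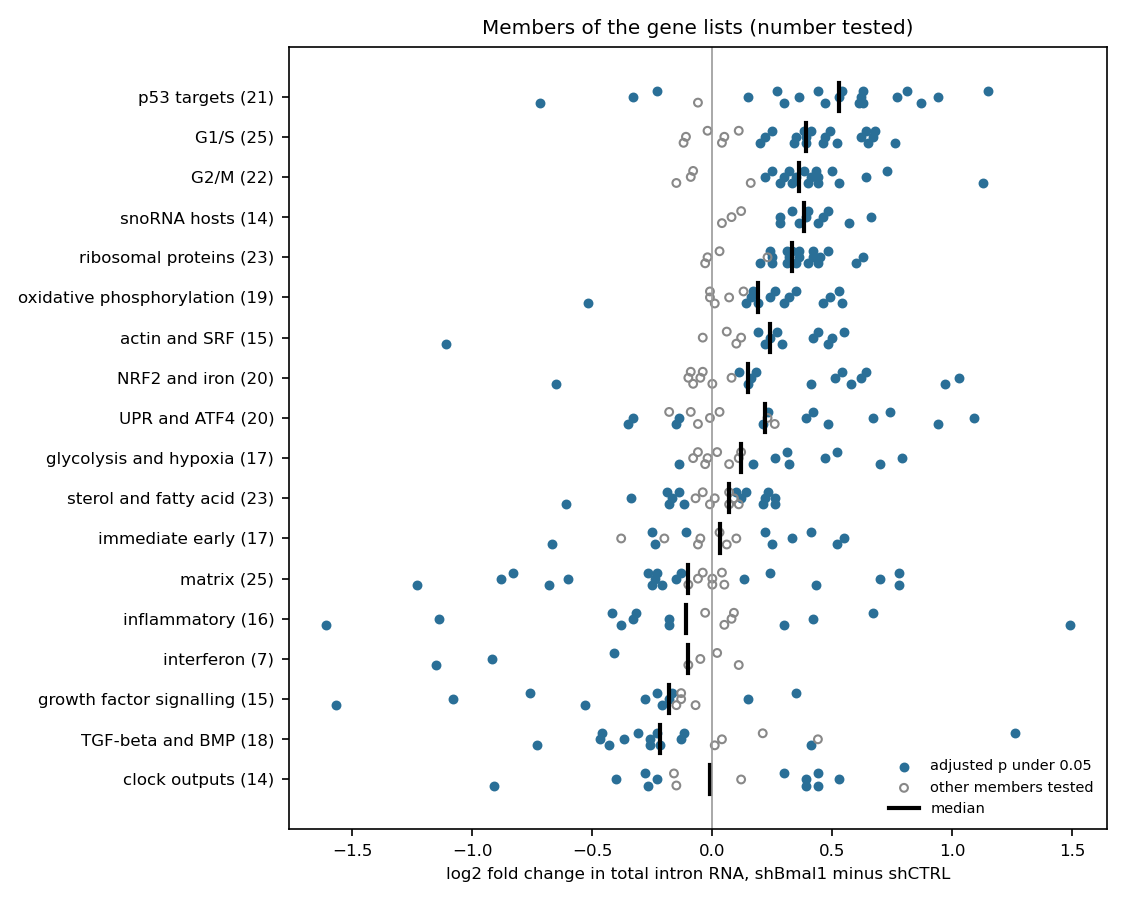
Log2 fold change in total intron RNA (x axis, shBmal1 minus shCTRL) of every tested member of 18 gene lists (y axis, number tested in brackets), filled where the limma adjusted p was under 0.05, with a black bar at the median. The medians run from 0.53 for p53 targets to -0.22 for TGF-beta and BMP genes, while the median of all genes was 0.005.

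RNA decay and transcription genes differed by small amounts. Their counts stand beside 28.9% higher and 27.3% lower among all genes. Of 28 decay factors 9 were lower and 6 higher (18 and 4 with upper quartile scaling, 6 and 7 within length bins), with Ago3 at -0.59 ± 0.0679 and Ago1, both Argonaute proteins, at -0.42 ± 0.0496. Of 27 genes of RNA polymerase II and splicing 12 were higher and 5 lower (7 and 6 with upper quartile scaling, 8 and 5 within length bins), with Polr2a, the largest subunit of the polymerase, at 0.37 ± 0.0331 and Med1, a Mediator subunit, at -0.41 ± 0.0483. Of 9 aldehyde dehydrogenases 3 were higher and 2 lower (3 and 4 with upper quartile scaling). Of 3 noncoding hosts in the nucleus 1 was higher, Pvt1, with 2 intron lengths.

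The difference between the lines ran with intron length. Among 801 genes with 1000 to under 3000 bases of intron 47.9% were higher and 9.74% lower (median 0.18), and among 771 genes with 100000 bases or more 8.04% were higher and 63.3% lower (median -0.18). The 331 genes with under 1000 bases had a median of 0.15, the 2097 with 3000 to under 10000 of 0.11, the 3125 with 10000 to under 30000 of 0.03 and the 2421 with 30000 to under 100000 of -0.10. Exons of the same libraries had medians of 0.14 and -0.23 in the second and the last class, and 4sU introns 0.15 and -0.13. At 10 of 12 time points the 3 classes under 10000 bases had medians above 0 and the 2 classes from 30000 bases had medians below 0. At 30 and 34 h, the times of the libraries that stood apart, the 3 shorter classes lay below 0, at -0.11 to -0.04. Expressed as the median of the longest class minus that of genes under 3000 bases, both relative to the mean library, the shCTRL libraries read -0.32 to 0.32 (median 0.21) and the shBmal1 libraries -0.55 to 0.25 (median -0.19). The value of -0.32 belonged to shCTRL at 30 h and that of 0.25 to shBmal1 at 34 h, and the other 11 libraries of shCTRL lay at 0.15 to 0.32 and those of shBmal1 at -0.55 to 0.01. The summed share of intron reads, given above, was lowest in shBmal1 at 24, 26 and 28 h, and its part in this pattern was not tested. Scaled within 20 bins of intron length, 2583 genes were higher and 2484 lower, and 69 and 65 were called. The clock values then stood at -1.51 for Nr1d2, -1.10 for Per3, -1.20 for Dbp and 0.98 for Nfil3, and without the libraries that stood apart at -1.57, -1.14, -0.95 and 1.07.

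**Figure D4:**
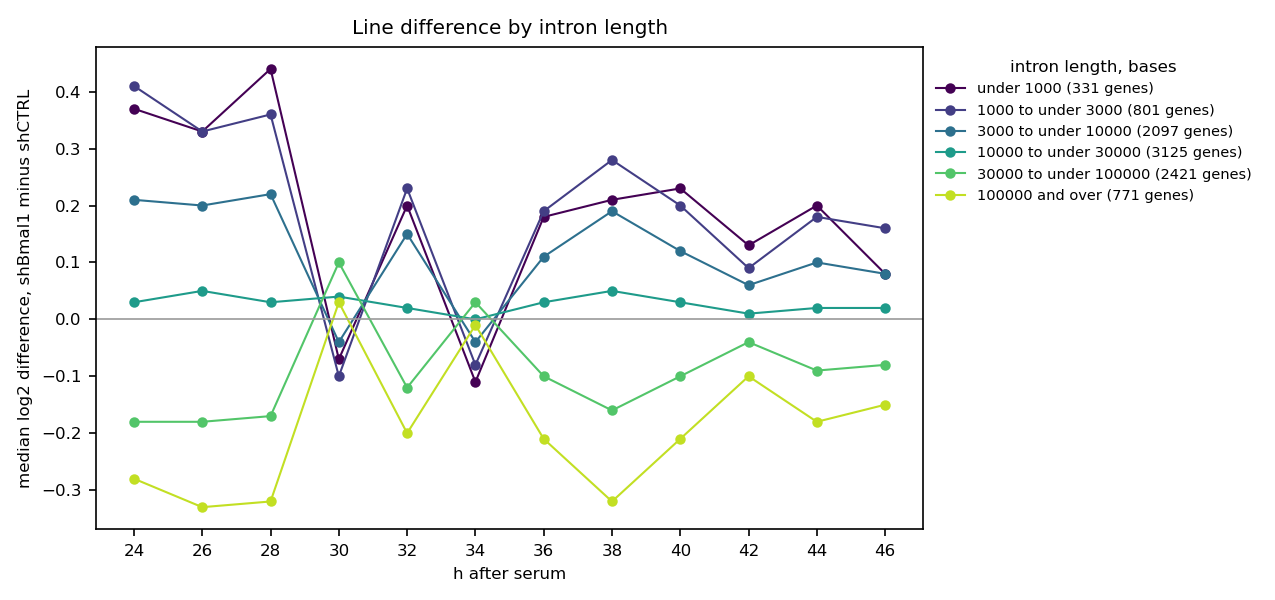
Median log2 difference between the lines (y axis, shBmal1 minus shCTRL) at each time point (x axis, h after serum) for 6 classes of intron length, 1 line per class. Genes with short introns lie above 0 and genes with long introns below 0 at 10 of 12 time points, and at 30 and 34 h the short classes fall below 0.

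The genes with different lengths in the lines show how much a deposited RPKM can move without a change in reads. Lims2 stood at 0.0761 RPKM in shCTRL and 1.36 in shBmal1 (3.82 on the log2 scale) with means of 161 and 143 intron reads over 32631 and 1736 bases. Gm17018 stood at 7.27 and 0.348, a log2 fold change of -4.31, with 394 and 341 reads over 834 and 16320 bases. Dgkd (3.48), Washc1 (3.32), Ppp1r12c (-3.24) and Dnase2a (-2.95) followed the same form. Of the 59 called genes of this kind 52 lay within 0.5 of the log2 ratio of their lengths, and 2 still differed 2-fold after that ratio was taken off, Pidd1 (1.39) and Mymx, a muscle fusion peptide (-2.59, from means of 15.4 and 3.0 reads). Put on the shCTRL length, 34 genes were called higher and 40 lower.

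**Figure D5:**
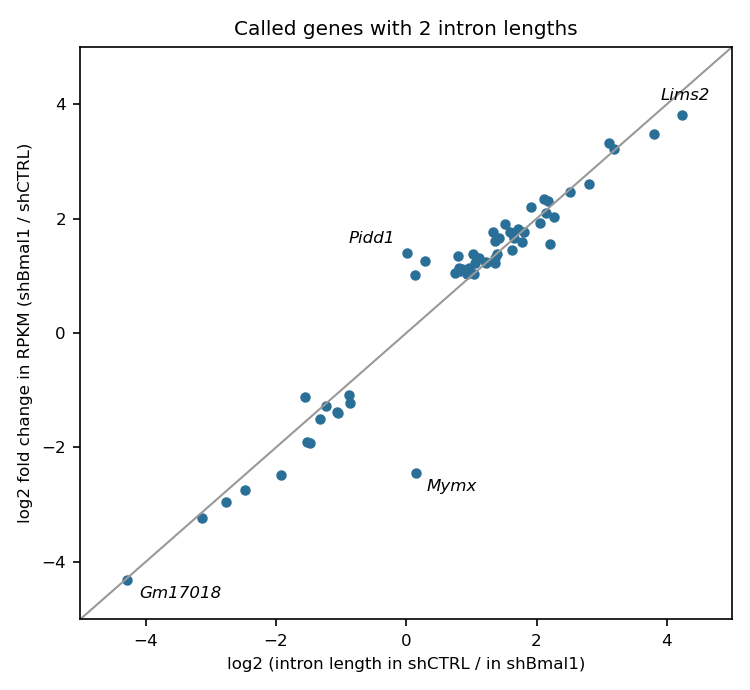
Log2 fold change in RPKM (y axis, shBmal1 over shCTRL) against the log2 ratio of the intron lengths behind the RPKM (x axis, shCTRL over shBmal1) for the 59 called genes with 2 intron lengths, with the line of equality in grey. From Gm17018 at the lower left to Lims2 at the upper right 52 of the 59 points lie within 0.5 of the line, and Mymx and Pidd1 lie off it.

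Standard errors were wider where reads were few. In genes with under 30 intron reads per library the median standard error was 0.224 and 20.6% passed an adjusted p under 0.05, while in genes with 3000 reads or more it was 0.0459 and 72.5% passed. Called genes with 1 length were 3.35% of the first class and 0.963% of the last. Of all genes 1922 (19.2%) lay on 1 side at 12 of 12 time points.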

How the data were processed

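The values were RPKM of introns in total RNA per gene and library, deposited by the authors; exon RPKM and 4sU intron RPKM from the same deposit were used only side by side. Per the submitters' processing notes, the tools and builds named are Trim Galore, HOMER 4.11.1, mm10 and GRCm38.p6; the aligner and the use of strand in counting are not given in the sources used here. Library totals and the intron length behind each gene's RPKM were recovered from the steps of low values (lengths equal within 0.1%), which gave 1 length for 10715 genes, 2 lengths between the lines for 548 and none for 50.

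RPKM were scaled by median ratios (factors 0.917 to 1.089), put on log2(RPKM + 0.02) and fitted in limma 3.58.1 (R 4.3.3) with line, 24 h and 12 h cosine and sine terms and their products with line, with trended and robust variances and Benjamini-Hochberg adjustment over all 10019 genes. Exons used a pseudocount of 0.1 and a minimum mean of 0.5. The deposited values are RPKM, and no count test was run on the recovered reads. On a simulated table of 10019 genes, 49 of 50 genes changed 1.5-fold and 50 of 50 changed 2-fold passed the adjusted p, beside 6 unchanged genes. With the 2-fold rule added, 0 of 50 and 25 of 50 were called. The simulated noise was independent between genes and held no shift shared by a library. It therefore cannot say how many of the genes that passed in the real data were unchanged.

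The genes, lists and rules were chosen with earlier results of these data known. Named were all clock genes, the 10 largest gains and 10 largest losses (called, 1 length, 1 direction at 12 of 12 time points), up to 4 members per other list by adjusted p, the 3 extremes each way with 2 lengths and the 10 smallest p of the change over the course. Other genes were named after their values were seen. A gene of the clock lists is not reported here. Alternatives covered scaling, pseudocount, filter, time terms, block, intron lengths and left-out libraries. Of these, 4, on libraries and lengths, were chosen after seeing the data. Time points were single libraries, so no replicate error within a time point exists.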

Additional observations from a re-analysis of the deposited data

Results flagged for a closer look

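The genes below were singled out because the difference between the lines itself changed over the course, tested in limma on the time terms that differ between shBmal1 and shCTRL and adjusted over all genes. The clock genes were Arntl (adjusted p = 0.000116), Cry1 (0.000429), Tef (0.000431), Per2 (0.000971), Nr1d2 (0.0196), Dbp (0.0257) and Per3 (0.0263). For Nr1d2 the log2 difference was -0.84 at 32 h and -2.09 at 46 h, and for Per3 -0.49 at 34 h and -1.67 at 26 h.

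The other 7 genes lie outside the clock lists. Tlr2 (limma adjusted p = 0.0196) was lower at 12 of 12 time points, by -0.53 at 44 h and -2.22 at 26 h. Prmt5, an arginine methyltransferase (limma adjusted p = 0.0257), was 1.03 higher at 26 h and stood at -0.02 at 42 h. Dna2, a nuclease and helicase of DNA replication (0.0257), ranged from -0.28 at 44 h to 0.80 at 36 h, and Acp4 (0.0257) from -0.77 at 30 h to 0.96 at 36 h. Anxa5, annexin A5 (0.0388), went from 0.80 at 24 h to -0.05 at 42 h. Vegfd, a growth factor of lymphatic vessels (0.0388), and Cyp26b1, an enzyme that degrades retinoic acid (0.0389), had mean differences of 0.01 and -0.03 with ranges from -0.41 to 0.32 and from -0.86 to 0.73. The extremes of Acp4 and Cyp26b1 on the lower side were both at 30 h, the time of the shCTRL library that stood apart.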

How the results depend on the processing

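Of 200 named genes, 148 kept their direction and their side of the threshold under all of the 27 other settings that gave a value. The counts of called genes, 74 higher and 53 lower, became 49 and 35 with a pseudocount of 0.1. Higher genes became 44 at a mean RPKM of at least 0.5, 30 with 1 intron length only and 34 with the shCTRL length. Past the adjusted p alone, 2896 and 2732 became 1550 and 1434 at a mean of at least 0.5 (fewer genes tested). They became 1203 and 1153 without 24, 26 and 28 h. The 14 genes that changed over the course became 6, 3 and, without the libraries that stood apart, 9. Leaving out 24, 26 and 28 h took away samples and also left a gap in the cycle that the time terms fit. Which of these lowered the counts was not tested. Leaving out 1 time point gave 70 to 75 higher and 51 to 57 lower called genes, 2607 to 2949 and 2440 to 2910 past the adjusted p, and 4 (without 36 h) to 11 course genes.

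With time point as a replicate block 74 genes were called higher and 52 lower, and 2743 and 2548 passed the adjusted p. Libraries of the same time point correlated at -0.0769 to 0.227, over 0.1 in 4 of 12 pairs, and 2 matched their own time best, so the time points were not taken as pairs.

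These log2 fold changes reversed sign, and except for the lengths the cause was not tested. On the shCTRL length Cnot4 stood at -0.07, Cox6c at -0.06, Dgkd at -0.21, Nampt at -0.05 and Por at -0.01. Without 24, 26 and 28 h Cd68 stood at -0.10, Ciart at 0.15 and Lpl at 0.11. These values compare fitted curves over a whole 24 h cycle, hours without libraries included. They are not mean differences of the remaining libraries. Within length bins Cd68 stood at -0.05, Dleu2 at 0.02 and Fbxw11 at 0.03. With upper quartile scaling Ftx stood at -0.05 and Vegfd at -0.06, the latter also at -0.06 with a minimum of 0.5. Without the libraries that stood apart Ftx stood at -0.04, Vegfd at -0.00 and Cd14 at 0.06. Cd14 stood at 0.00 without a filter, with 1 length only and on the shCTRL length, and at -0.12 to 0.12 without single time points. Lpl stood at -0.08 to 0.08 and Ftx at -0.01 to 0.05 without single time points. Cyp26b1 stood at 0.01 without the 30 h time point.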

Other observations

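The protocadherin clusters on chromosome 18 were lower in shBmal1 as blocks. All 11 measured symbols of the alpha cluster stood at -0.67 to -0.61 and all 22 of the gamma cluster at -0.85 to -0.64, each past a limma adjusted p under 0.05. These symbols share their introns, so they are not independent genes. Zmat2 on 1 side stood at 0.07, and Diaph1 and Hdac3 on the other at -0.18 and 0.19. The 9 symbols of the Ugt1a cluster on chromosome 1, which encodes glucuronosyltransferases and also shares introns, were higher at 0.36 to 0.44. Without these families 2887 genes were higher and 2699 lower of 9977. Chromosome medians ran from -0.09 for chromosome 12 to 0.06 for chromosomes 8 and 10.

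Some listed genes lay under the filter and were not tested. The proliferin copy Prl2c3 had means of 0.0102 deposited RPKM in shCTRL and 0.1138 in shBmal1, and Plau, the gene of urokinase, 0.0376 and 0.1003.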
